A study of Ovis aries with 24 samples.

Results

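The 7 genes WIPF3, PLPP1, EHD3, NADK2, DOCK3, OSR2 and GHRHR were followed across the liver and the periventricular white matter of preterm lambs, out of 27716 genes counted in each tissue. They were chosen by their measured values: a strong difference in liver between budesonide and surfactant alone with none in white matter, or a large rise in liver. All 7 were found by symbol in both tissues. Their values in the budesonide comparisons are therefore given as a description, without a test, and tests were run only on comparisons that the choice did not use.

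The budesonide lambs were mechanically ventilated and received intratracheal Poractant alpha, a lung surfactant, at 2.5 mL/kg together with budesonide at 0.25 mg/kg. The surfactant lambs were ventilated and received the same surfactant dose without budesonide. The unventilated lambs had neither ventilation nor drug, and in each tissue were 2 males, 1 female and 1 lamb of sex not given. Each group gave 4 libraries per tissue, from 13 sheep in all, of which 11 gave both tissues. Both ventilated groups held 1 male of 127 days of gestation and 3 females of 126 days, while the unventilated lambs were 127 or 128 days old, so ventilation and gestational age overlap only at 127 days and are hard to separate, and sex and age cannot be told apart within the ventilated groups. Lamb 060 is labelled female with its white matter and carries no sex with its liver.

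Budesonide is a synthetic glucocorticoid. It binds the glucocorticoid receptor, a transcription factor present in most tissues, which then raises some genes and lowers others, and the genes that answer differ between cell types. Liver is a classical target, in which glucocorticoids promote gluconeogenesis and, before birth, maturation of hepatocytes. The members have unrelated roles. GHRHR is the receptor through which growth hormone-releasing hormone acts on pituitary somatotrophs. OSR2 is a zinc finger transcription factor of the odd-skipped family, known from palate, tooth and limb development in mice. WIPF3 belongs to the WIP family, whose proteins bind actin and the WASP-type activators of ARP2/3 actin nucleation, and DOCK3 is an exchange factor that loads the small GTPase RAC and is best known from neurons. PLPP1 is a membrane phosphatase that removes phosphate from lipids such as lysophosphatidic acid and phosphatidic acid. EHD3 is an ATPase of endosomal recycling, and NADK2 is the mitochondrial NAD kinase, which makes NADP.

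Gene counts per library summed to between 16087620 and 23175121 in liver and between 14929261 and 17532605 in white matter. Levels are given as CPM, the standard depth-normalised count, with library sizes scaled within a tissue by edgeR's TMM factors, and log2 changes and standard errors (SE) come from edgeR's quasi-likelihood fit over all genes, with an adjusted p under 0.05 as the threshold for a call. Levels are not corrected for gene length and are compared between samples, not between genes. The summed level of 6 hepatocyte markers was 166000 to 220000 CPM in budesonide livers, 210000 to 249000 CPM in surfactant livers and 184000 to 242000 CPM in unventilated livers, against 36.6 to 208 CPM in white matter. The 3 astrocyte markers summed to at least 3460 CPM in every white matter library, against at most 8.04 CPM in liver.

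GHRHR was read at 12.8, 5.33, 3.26 and 1.03 CPM in the livers of budesonide lambs 031, 048, 050 and 054. It was read at 0.222, 0.12, 0 and 0.206 CPM in the surfactant livers and at 0.385, 0.411, 0.118 and 0.714 CPM in the unventilated livers. Every budesonide liver was above every liver of both other groups, but the budesonide livers themselves spanned 1.03 to 12.8 CPM, a coefficient of variation of 91.2%. The 4 budesonide libraries held 385 GHRHR counts in all, against 10 in the surfactant and 35 in the unventilated livers. The log2 difference of budesonide over surfactant was 5.28 (SE 0.85), and it was 4.48 without lamb 031, the highest liver. The difference was the 8th largest in absolute size of the 16824 genes tested in liver, at levels that stayed low throughout.

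OSR2 was read at 10.4, 4.59, 7.04 and 1.54 CPM in the budesonide livers. It was at 0.222, 0.06, 0.222 and 0.412 CPM in surfactant livers and at 0.193, 0.0456, 0.412 and 0.179 CPM in unventilated livers. The budesonide livers did not overlap either group, and lamb 054 was again the lowest and lamb 031 the highest. The log2 difference of budesonide over surfactant was 4.62 (SE 0.66), from 404 counts in the budesonide and 17 in the surfactant livers. Of 4 glucocorticoid reference genes, TSC22D3, the glucocorticoid-induced leucine zipper gene, and PER1, a clock gene, had the same order as OSR2 over the 4 budesonide livers, while FKBP5 and ZBTB16 had another. PER1 was nearly even in lambs 031, 048 and 050, at 101, 98.4 and 98.6 CPM, and was at 63.4 CPM in lamb 054. Lamb 054 was the lowest of the group for all 4 reference genes. TSC22D3 was read at 271, 117, 222 and 107 CPM and FKBP5 at 473, 523, 526 and 457 CPM in lambs 031, 048, 050 and 054. Lamb 054 was the male of its group and also its oldest lamb, so that sex and age cannot be told apart in its low values.

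WIPF3, of the WIP family of actin regulators, was the most even of the 3 members that were higher with budesonide. It was read at 77.9, 81.1, 99.5 and 79.4 CPM in budesonide livers, at 5.89, 4.38, 5.55 and 5.97 CPM in surfactant livers, and at 2.26, 2.65, 2.12 and 2.46 CPM in unventilated livers. The lowest budesonide liver was 13-fold above the highest surfactant liver, and the budesonide group varied by 12% (coefficient of variation). The log2 difference of budesonide over surfactant was 3.95 (SE 0.16), the 28th largest in absolute size of the 16824 genes tested in liver. The 3 groups formed 3 separate steps, with budesonide highest and unventilated lowest. Among the budesonide livers, lamb 050 was the highest and lamb 031 the lowest.

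DOCK3, the RAC exchange factor, was scarce in liver, with 9 to 60 counts per library. It was read at 0.524, 1.15, 0.698 and 0.707 CPM in budesonide livers, at 2.95, 2.46, 2.83 and 3.09 CPM in surfactant livers, and at 1.78, 1.19, 1.35 and 2.23 CPM in unventilated livers. All 4 budesonide livers were below every liver of both other groups, although the gap to the lowest unventilated liver was narrow. The log2 difference of budesonide over surfactant was -1.87 (SE 0.30). In the reference annotation the DOCK3 span holds another gene entry, and how reads that overlap both were counted is not given in the sources used here.

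PLPP1, the lipid phosphate phosphatase, was highest with surfactant alone. It was read at 124, 155, 116 and 175 CPM in budesonide livers, at 330, 418, 351 and 465 CPM in surfactant livers, and at 109, 96.4, 118 and 114 CPM in unventilated livers. The surfactant livers stood above all others, and the budesonide livers overlapped the unventilated ones. The log2 difference was -1.46 (SE 0.17) for budesonide over surfactant and 0.38 (SE 0.17) for budesonide over unventilated. In the reference annotation the spans of PLPP1 and its neighbour MTREX overlap. Whether counting used strand, and how it treated reads of the overlap, is not given in the sources used here.

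EHD3, of endosomal recycling, stood at one level in the 2 groups without budesonide and at a lower one with it. It was read at 19.1, 18.1, 10.8 and 23.3 CPM in budesonide livers, at 60.5, 70.4, 64.9 and 70.3 CPM in surfactant livers, and at 61.8, 77.4, 57 and 71.4 CPM in unventilated livers. The highest budesonide liver was below the lowest of the other 8. The log2 difference of budesonide over surfactant was -1.90 (SE 0.21).

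NADK2 descended in steps. The mitochondrial NAD kinase was read at 31.9, 28.2, 35.3 and 29.4 CPM in budesonide livers, at 81.3, 122, 80.3 and 104 CPM in surfactant livers, and at 129, 147, 152 and 122 CPM in unventilated livers. The budesonide livers were below all others, whereas the highest surfactant liver and the lowest unventilated liver lay next to each other. The log2 difference was -1.64 (SE 0.16) for budesonide over surfactant and -2.14 (SE 0.17) for budesonide over unventilated.

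**Figure D1:**
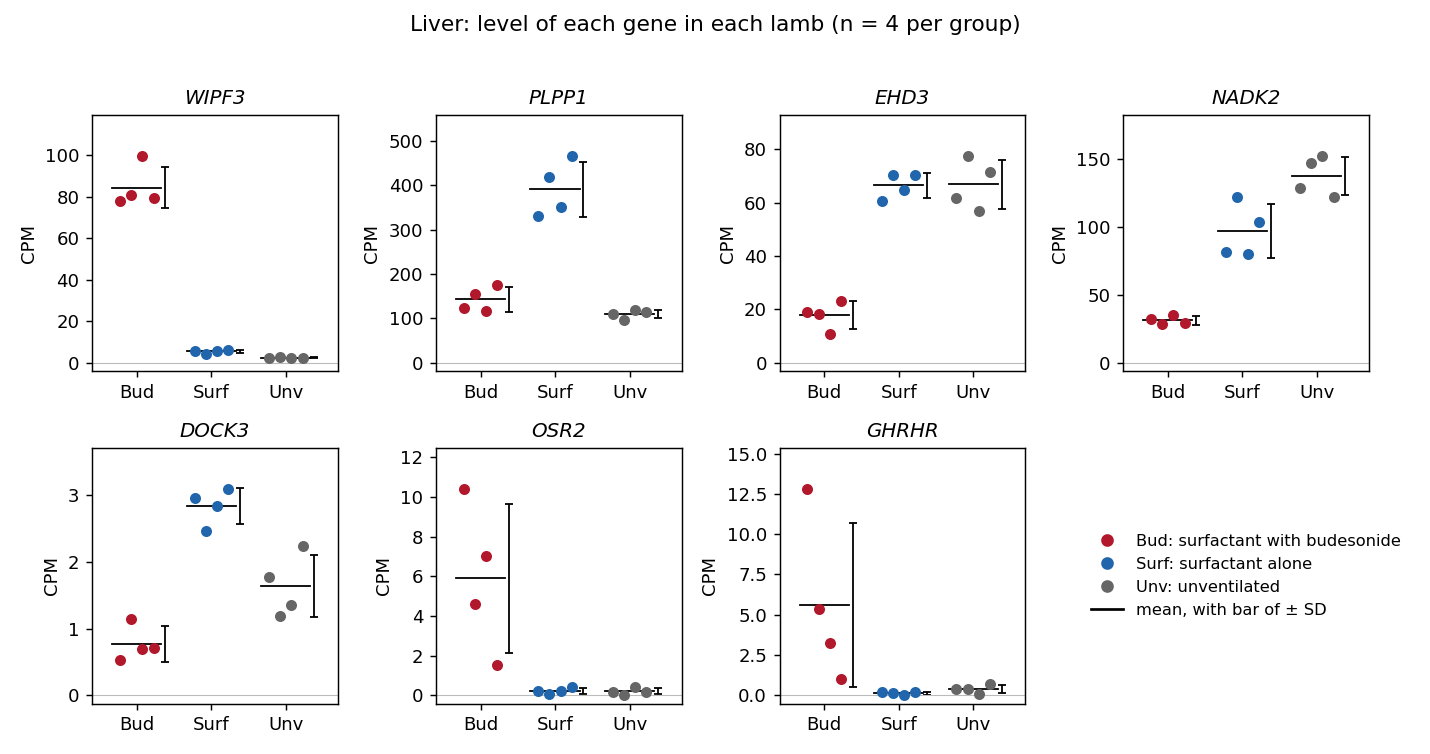
Level of each member in liver in CPM (linear axis) in the 4 lambs of each group, with the group mean (line) and ± SD (bar beside the points). GHRHR, OSR2 and WIPF3 were highest with budesonide, where OSR2 spanned 1.54 to 10.4 CPM and GHRHR 1.03 to 12.8 CPM; PLPP1 was highest in surfactant livers, at 330 to 465 CPM; EHD3, NADK2 and DOCK3 were lowest with budesonide.

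Between budesonide and surfactant in liver 11.9% of all genes tested passed the threshold, 4.01% higher and 7.85% lower. The members were picked for this difference, so they were not tested in it. Across the 12 livers WIPF3, OSR2 and GHRHR ran together and against EHD3 and NADK2 (Pearson's r of log2 CPM was 0.91 for WIPF3 and OSR2, and -0.98 for WIPF3 and NADK2), which the choice by group already fixes. PLPP1 ran less closely with these genes, with r of -0.12 to WIPF3, 0.10 to NADK2 and 0.34 to EHD3 over the same 12 libraries. Its r was -0.3 to OSR2 and -0.51 to GHRHR, and it was 0.67 to DOCK3.

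In white matter the 5 members that could be fitted had nearly equal levels with and without budesonide, as the rule required. DOCK3 was read at 232, 199, 219 and 231 CPM in budesonide lambs and at 213, 246, 219 and 235 CPM in surfactant lambs. PLPP1 averaged 79.0 ± 3.92 CPM with budesonide and 79.9 ± 5.52 CPM with surfactant (SD, n = 4 each). NADK2 averaged 32.5 ± 2.58 CPM with budesonide and 32.0 ± 3.17 CPM with surfactant. EHD3 ranged from 112 to 135 CPM with budesonide and from 129 to 144 CPM with surfactant, with a log2 difference of -0.14 (SE 0.08). The groups overlapped for all 5, and their log2 differences lay between -0.14 and 0.02. In this comparison 0.978% of all genes tested in white matter passed the threshold, and the members, chosen for no change here, were not tested.

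WIPF3 was the member whose white matter values constrain a budesonide change least. It was read at 70.2, 85, 79.8 and 62.8 CPM in budesonide lambs, at 93.4, 36.8, 47.6 and 126 CPM in surfactant lambs and at 55, 46.2, 43 and 65.2 CPM in unventilated lambs. The surfactant lambs lay on both sides of all budesonide lambs, and the log2 difference of -0.03 had an SE of 0.30 and ranged from -0.26 to 0.33 when 1 library was left out. Surfactant lamb 051, which had the highest WIPF3, also had a summed level of 4 oligodendrocyte markers of 11900 CPM, against 680 to 2150 CPM in the other 3 surfactant lambs; the part of these cells in the WIPF3 value was not tested. Microglia markers also moved in white matter, with 2 of 2 lower with budesonide and sums of 13.1 to 26.1 CPM in budesonide, 54.5 to 81.8 CPM in surfactant and 85.4 to 100 CPM in unventilated lambs, and their part in the members' values was not tested. Surfactant lamb 007 had the next highest WIPF3 with a marker sum of 1790 CPM, within the range of the remaining lambs.

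OSR2 and GHRHR were too scarce in white matter to be fitted there. OSR2 had 1 count over the 4 budesonide libraries, 2 over the surfactant and 5 over the unventilated libraries. GHRHR had 25, 9 and 8 counts in budesonide, surfactant and unventilated white matter, with 3 to 9 counts in each budesonide library and 0 to 6 in each surfactant library. The groups overlapped, and a change in white matter of these genes was not detectable at this depth, so that the description as liver-restricted rests for them on near absence in white matter and not on an even level.

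**Figure D2:**
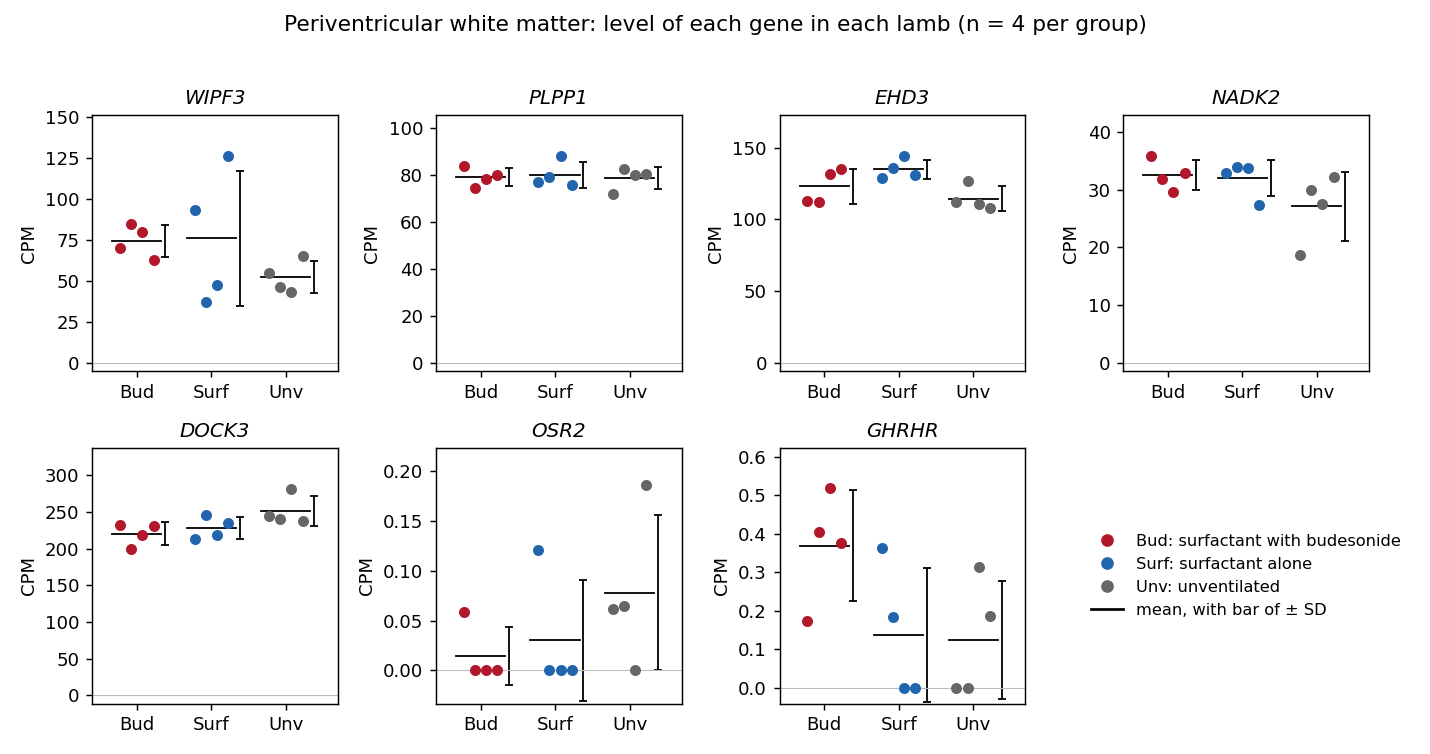
Level of each member in periventricular white matter in CPM (linear axis) in the 4 lambs of each group, with the group mean (line) and ± SD (bar beside the points). PLPP1, EHD3, NADK2 and DOCK3 had overlapping ranges in budesonide and surfactant lambs, WIPF3 spread from 36.8 to 126 CPM among surfactant lambs, and OSR2 stayed at or below 0.186 CPM and GHRHR at or below 0.52 CPM.

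Of the 4 glucocorticoid reference genes, 2 were called higher with budesonide in white matter and 3 in liver in the main edgeR fits. FKBP5, which binds the receptor complex and is a textbook glucocorticoid target, averaged 431 ± 33.3 CPM in budesonide white matter and 150 ± 30.4 CPM in surfactant white matter (SD, n = 4 each; log2 change 1.52, SE 0.15, edgeR adjusted p = 0.000983). In liver FKBP5 averaged 495 ± 34.7 CPM with budesonide and 92.3 ± 40.3 CPM with surfactant (log2 change 2.42, SE 0.34, edgeR adjusted p = 0.00168). TSC22D3 rose by 0.63 in white matter (SE 0.12, edgeR adjusted p = 0.034) and by 1.63 in liver (SE 0.39, edgeR adjusted p = 0.0207) on the log2 scale. Its white matter call was lost, at edgeR adjusted p of 0.0515 to 0.0851, without any 1 of the 4 budesonide lambs, surfactant lambs 007, 032 and 049, or unventilated lamb 061, and its liver call, at 0.0538 to 0.0662, without budesonide lamb 031 or surfactant lamb 032 or 049. PER1 did not pass in white matter (log2 0.46, SE 0.10, edgeR adjusted p = 0.0507) and rose in liver by 1.54 (SE 0.29, edgeR adjusted p = 0.00692). ZBTB16, a zinc finger factor, passed in neither tissue (log2 0.83 in white matter and 1.09 in liver, edgeR adjusted p = 0.146 and 0.0669). By DESeq2, an alternative method, PER1 passed in white matter (DESeq2 adjusted p = 0.0016). ZBTB16 then passed in white matter and liver (DESeq2 adjusted p = 0.0334 and 0.0285). Some other edgeR fits gained these calls too, such as white matter PER1 with median-ratio scaling (edgeR adjusted p = 0.0475). Between tissues, the difference in the FKBP5 response did not pass the threshold (0.90 on the log2 scale, SE 0.38, edgeR adjusted p = 0.2). For the members the corresponding difference of liver change minus white matter change was 3.99 (SE 0.38) for WIPF3, -1.44 (SE 0.17) for PLPP1, -1.76 (SE 0.22) for EHD3, -1.66 (SE 0.22) for NADK2 and -1.82 (SE 0.25) for DOCK3. In the joint fit it was 5.39 (SE 2.17) for OSR2 and 3.97 (SE 1.45) for GHRHR, with few white matter counts behind both, and without 1 library it ranged from 3.29 to 6.73 for OSR2 and from 2.92 to 4.36 for GHRHR. Over all genes 3.41% differed between the tissues in this way, and the members were chosen for it.

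Some members also differed between surfactant and unventilated livers, a comparison that the rule does not name. These are separate lambs that differ in gestational age as well as in ventilation and surfactant. The comparison shares the 4 surfactant libraries with the budesonide comparison. A gene picked as low with budesonide can be one whose surfactant values happen to be high. In liver PLPP1 rose to 391 ± 62.1 CPM in surfactant lambs, against 109 ± 9.46 CPM in unventilated lambs (log2 change 1.84, SE 0.17, edgeR adjusted p = 1.5e-05). WIPF3 rose to 5.45 ± 0.735 CPM in surfactant lambs, against 2.37 ± 0.231 CPM in unventilated lambs (log2 change 1.20, SE 0.16, edgeR adjusted p = 0.000144). For both genes every surfactant liver was above every unventilated liver, though the share of all genes without overlap was not counted. Both passed without any 1 library. Of the 5 members tested 3 rose and 1 fell, where 41.1% of all genes tested changed, 21.6% upward and 19.5% downward. The share of members was higher, but nothing is read from it. Only 5 genes were tested, and the surfactant livers also entered the comparison that chose them.

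The other 2 calls lay near the threshold and were lost when any 1 of several libraries was left out. NADK2 fell by 0.50 on the log2 scale, to 97.1 ± 20.1 CPM in surfactant livers, against 138 ± 14.1 CPM in unventilated livers (SE 0.16, edgeR adjusted p = 0.0235). The edgeR adjusted p was 0.053 without surfactant lamb 049, 0.0557 without unventilated lamb 058 and 0.0573 without unventilated lamb 059. DOCK3 rose to 2.83 ± 0.269 CPM in surfactant livers, against 1.64 ± 0.469 CPM in unventilated livers (log2 change 0.78, SE 0.28, edgeR adjusted p = 0.0404). That call was lost, at edgeR adjusted p of 0.0562 to 0.109, without any 1 of surfactant lambs 007, 032, 049 and 051 or unventilated lambs 057, 058 and 059. Without surfactant lamb 049, unventilated lamb 058 or unventilated lamb 059, both calls were lost together and 2 members remained called. With gestational age in the model neither gene passed (edgeR adjusted p = 0.11 for NADK2 and 0.219 for DOCK3), whereas PLPP1 and WIPF3 did (edgeR adjusted p = 0.00175 and 0.0119). DOCK3 also missed the threshold without the filter on low counts (edgeR adjusted p = 0.0618) and with unscaled library totals (log2 change 0.47, edgeR adjusted p = 0.203). EHD3 averaged 66.5 ± 4.77 CPM in surfactant livers and 66.9 ± 9.23 CPM in unventilated livers, a log2 difference of -0.01 (SE 0.20, edgeR adjusted p = 0.979) whose sign changed with the scaling. OSR2 had 17 counts over the surfactant and 16 over the unventilated livers, and GHRHR 10 and 35; neither was tested, since without the budesonide livers both fell under the filter on low counts.

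In white matter none of the 5 fitted members passed between surfactant and unventilated lambs by edgeR, where 2.05% of genes did. EHD3 came nearest, at 129 to 144 CPM in surfactant lambs and 108 to 127 CPM in unventilated lambs, ranges that did not overlap (log2 change 0.24, SE 0.08, edgeR adjusted p = 0.196). Setting the tissues against each other, the liver change with ventilation minus the white matter change was 1.89 for PLPP1 (SE 0.17, edgeR adjusted p = 2.2e-07), 0.99 for DOCK3 (SE 0.23, edgeR adjusted p = 0.00281) and -0.67 for NADK2 (SE 0.21, edgeR adjusted p = 0.0243). These 3 of 5 stand beside 25.8% of all genes, but nothing is read from that share. The surfactant libraries of both tissues also entered, with opposite sign, the tissue difference that the members were chosen on. PLPP1 and DOCK3 kept the call in every fit that left out 1 library, whereas NADK2 lost it without the liver library of surfactant lamb 049 (edgeR adjusted p = 0.0542). WIPF3 did not pass (0.73, SE 0.38, edgeR adjusted p = 0.17), but did so without the white matter of surfactant lamb 051, the one rich in oligodendrocyte markers (1.09, edgeR adjusted p = 0.02). White matter PLPP1 stood at 75.5 to 87.9 CPM in surfactant lambs and 71.9 to 82.6 CPM in unventilated lambs.

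**Figure D3:**
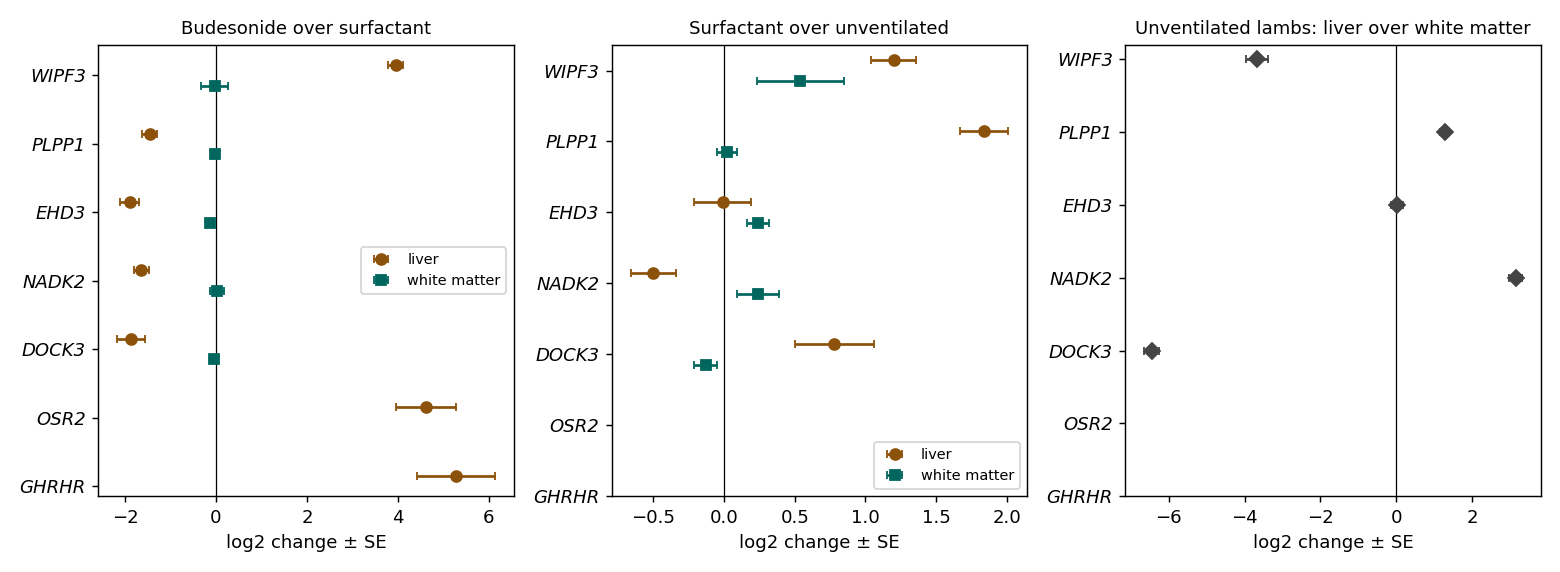
Log2 changes of the members from edgeR, with bars of ± SE, for budesonide over surfactant (left), surfactant over unventilated (middle) and unventilated liver over unventilated white matter (right); circles are liver and squares white matter; OSR2 and GHRHR are shown only for liver in the left panel. The left panel shows the differences used to choose the members, from 5.28 for GHRHR to -1.90 for EHD3 in liver and within 0.14 of 0 in white matter; in the middle panel PLPP1 stands at 1.84 in liver and 0.02 in white matter.

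The unventilated lambs give the levels of the members without ventilation or drug, in animals outside the budesonide-to-surfactant comparison. If the phrase on a large liver rise was meant against unventilated livers, their low values for OSR2 and GHRHR entered the choice. Both tissues were scaled together here, so these CPM differ from those above. DOCK3 was read at 2.15 ± 0.63 CPM in liver and 190 ± 14.8 CPM in white matter (SD, n = 4 each; log2 change -6.45, SE 0.19, edgeR adjusted p = 3.29e-18). WIPF3 was likewise lower in liver, at 3.12 ± 0.396 CPM, than in white matter, at 39.7 ± 7.75 CPM (log2 change -3.66, SE 0.29, edgeR adjusted p = 1.05e-10). NADK2 was higher in liver, at 181 ± 17.2 CPM, than in white matter, at 20.5 ± 4.25 CPM (log2 change 3.14, SE 0.16, edgeR adjusted p = 3.98e-14). PLPP1 was higher in liver too, at 143 ± 9.06 CPM in liver and 59.6 ± 2.52 CPM in white matter (log2 change 1.27, SE 0.12, edgeR adjusted p = 3.04e-09). For each of these 4 genes the tissues did not overlap. The share of all genes without overlap was not counted, and 77.9% of all genes passed the threshold between the tissues, so nothing is read from it.

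EHD3 had about equal levels in both tissues, 88.1 ± 14.6 CPM in liver and 86.7 ± 5.98 CPM in white matter (log2 change 0.02, SE 0.16, edgeR adjusted p = 0.893), but with unscaled library totals it was lower in liver by -0.60 on the log2 scale, where the median of all genes shifted by -0.63. GHRHR was read at 0.54 ± 0.327 CPM in unventilated liver and 0.0938 ± 0.115 CPM in unventilated white matter, from 35 and 8 counts. OSR2 was read at 0.267 ± 0.187 CPM in liver and 0.059 ± 0.0586 CPM in white matter, from 16 and 5 counts. Both genes were scarce in both tissues, and neither was tested, because each passed the filter on low counts only through the budesonide livers for which it was chosen. Of the 5 members tested, 2 were higher and 2 lower in liver, where 77.9% of all genes did, 36.1% higher and 41.7% lower.

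The families and pathways around the members were read from 7 lists of 129 other genes, of which 113 were tested in liver. Between budesonide and surfactant livers 4 of them rose and 10 fell, 12.4% in all, close to the 11.9% of all genes, and without budesonide lamb 031 the calls numbered 4 in all. The count was also 7 without budesonide lamb 048, 9 without surfactant lamb 032 and 7 without surfactant lamb 049. Among 117 tested in white matter 1 fell and none rose by edgeR, 0.855%, against 0.978% of all genes.

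Around WIPF3, 1 of 20 genes of actin nucleation changed. WASF2, a WAVE protein that activates ARP2/3, rose to 64.6 ± 10.7 CPM in budesonide livers, against 38 ± 7.35 CPM in surfactant livers (log2 change 0.76, SE 0.17, edgeR adjusted p = 0.0138). The paralogs WIPF1 and WIPF2 did not pass (log2 -0.22 and 0.34, edgeR adjusted p = 0.275 and 0.343). The median of the list was 0.07, against -0.01 for all genes.

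Around PLPP1, 1 of 22 tested genes rose and 2 fell. PLPP2, a phosphatase of the same family, was at 6.93 ± 1.34 CPM in budesonide livers and 15.5 ± 4.56 CPM in surfactant livers (log2 change -1.16, SE 0.24, edgeR adjusted p = 0.0115). The sphingosine 1-phosphate receptor S1PR2 fell by 1.19 and the phosphatidic acid phosphatase LPIN2 rose by 0.50 on the log2 scale. Unlike PLPP1, PLPP2 did not pass between surfactant and unventilated livers (log2 -0.19, edgeR adjusted p = 0.553); this difference between the genes was not tested.

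Around EHD3, 1 of 17 genes fell. EHBP1, a partner of EHD proteins, was at 27.2 ± 2.35 CPM in budesonide livers and 43.3 ± 7.44 CPM in surfactant livers (log2 change -0.67, SE 0.16, edgeR adjusted p = 0.018), and its liver change differed from that in white matter (-0.70, SE 0.18, edgeR adjusted p = 0.0284). EHD1, EHD2 and EHD4 had log2 differences of -0.03, 0.70 and -0.47 and did not pass.

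Around NADK2, 1 of 21 genes rose and 2 fell. QPRT, which makes NAD precursors from quinolinate, fell by 1.03 and the nicotinamide riboside kinase NMRK1 by 0.78 on the log2 scale, while SLC25A51, the mitochondrial NAD carrier, rose by 0.62. The cytosolic NAD kinase NADK averaged 196 ± 10.7 CPM in budesonide livers and 203 ± 18.6 CPM in surfactant livers (log2 -0.05, SE 0.15, edgeR adjusted p = 0.858).

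Around DOCK3, 3 of 16 genes fell and none rose. The GTPase RAC2, known from blood cells, was at 17.1 ± 3.03 CPM in budesonide livers and 29.6 ± 4.02 CPM in surfactant livers (log2 change -0.79, SE 0.16, edgeR adjusted p = 0.0108). DOCK4 and DOCK6 fell by 0.72 and 0.67 on the log2 scale. The leukocyte marker PTPRC moved with them, at 25.8 ± 4.79 CPM in budesonide livers and 43.7 ± 4.99 CPM in surfactant livers (log2 change -0.76, SE 0.16, edgeR adjusted p = 0.0112), and its part in these changes was not tested. The 4 lymphocyte markers that include it summed to 26.1 to 39.6 CPM in budesonide, 44.8 to 56.2 CPM in surfactant and 28.9 to 36.7 CPM in unventilated livers, with 1 of 4 called, PTPRC.

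Around OSR2, 8 of 16 listed transcription factors were tested in liver. LHX2, known from hepatic stellate cells in mice, rose to 16.5 ± 1.11 CPM in budesonide livers, against 4.90 ± 3.99 CPM in surfactant livers (log2 change 1.75, SE 0.44, edgeR adjusted p = 0.0245), and GATA4 fell by 0.83. The paralog OSR1 did not pass (log2 -0.67, SE 0.53, edgeR adjusted p = 0.417). Around GHRHR, 9 of 16 listed genes were tested and only PTH1R, the parathyroid hormone receptor, was called, with a fall of 0.77; the ligand gene GHRH did not pass (log2 -0.19, SE 0.65, edgeR adjusted p = 0.872). Of the 14 list genes called, WASF2, PLPP2, EHBP1 and RAC2 passed without any 1 library, and the other 10 did not pass without budesonide lamb 031, at edgeR adjusted p of 0.0535 to 0.125.

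**Figure D4:**
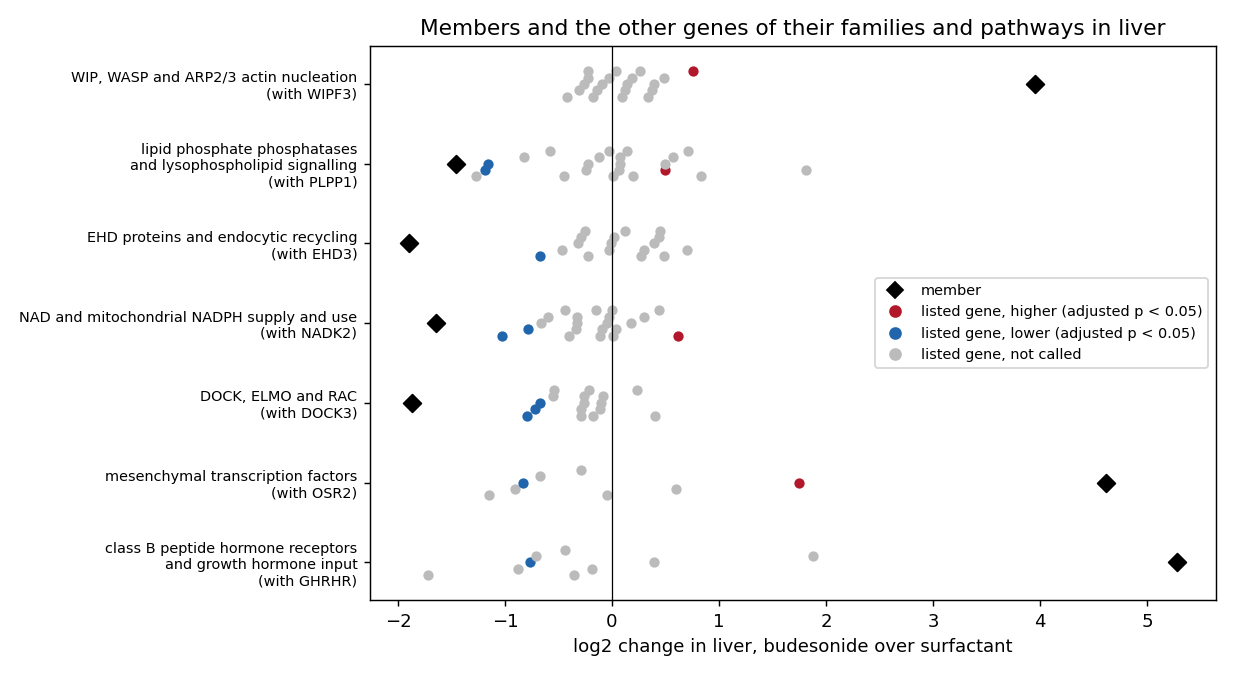
Log2 change in liver, budesonide over surfactant, of each member (diamond) and of the tested genes of its list (circles), with genes past an edgeR adjusted p of 0.05 in red where higher and in blue where lower; the vertical scatter within a list carries no value. Members lie at -1.90 to -1.46 or at 3.95 to 5.28, while called list genes reach 1.75 for LHX2 on the higher side and -1.19 for S1PR2 on the lower.

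Markers of other liver cells were read beside the members, since in bulk tissue fewer cells of a type and less RNA per cell cannot be told apart. The sum of 6 endothelial markers was 682 to 861 CPM in budesonide livers, 703 to 930 CPM in surfactant livers and 456 to 619 CPM in unventilated livers. Of these markers 3 fell with budesonide: PECAM1 by 0.95 (SE 0.18, edgeR adjusted p = 0.00743), KDR by 1.03 (SE 0.16, edgeR adjusted p = 0.00299) and CDH5 by 0.54 (SE 0.15, edgeR adjusted p = 0.0396) on the log2 scale. CDH5 lost its call, at edgeR adjusted p of 0.052 to 0.116, without any 1 of budesonide lambs 031, 048 and 050, surfactant lambs 032 and 049, or unventilated lambs 057, 058 and 060. Of 4 cholangiocyte markers SOX9 was called, at 16.3 ± 2.82, 56.1 ± 51.9 and 18.5 ± 2.97 CPM in budesonide, surfactant and unventilated livers (log2 change -1.78, SE 0.52, edgeR adjusted p = 0.0426), a call lost at 0.0506 to 0.144 without any 1 library other than those of surfactant lambs 007 and 032; without surfactant lamb 049 the change was -0.97. Of 2 microglia markers P2RY12 was called, at 0.492 ± 0.0578, 2.32 ± 0.622 and 0.876 ± 0.343 CPM in budesonide, surfactant and unventilated livers (log2 change -2.23, SE 0.34, edgeR adjusted p = 0.00236). The 6 macrophage markers summed to 519 to 769, 611 to 717 and 522 to 630 CPM in these groups, with none called by edgeR. The 6 erythroid markers summed to 1170 to 2950, 729 to 1510 and 331 to 2090 CPM in the same order. Their log2 changes of budesonide over surfactant were all upward, from 0.40 to 1.24, with none called by edgeR. The part of these cells in the members' values was not tested. Among endothelial markers STAB2, LYVE1 and VWF did not pass, with log2 differences of -0.31, 0.61 and -0.63. EHD3, DOCK3, PLPP1 and NADK2 moved in the direction of PECAM1 and KDR, and the part of endothelial cells in their values was not tested. The sizes of the changes are not compared, since the members were chosen for theirs. PECAM1 was at 48.2 ± 5.29, 92.8 ± 22.5 and 44.3 ± 5.75 CPM in budesonide, surfactant and unventilated livers, highest in the surfactant group like PLPP1. The means of STAB2, CDH5 and VWF were also highest in that group. KDR was instead highest in unventilated livers, at 35.2 ± 6.2, 72.1 ± 8.32 and 92.1 ± 11.8 CPM in the same order. LYVE1 was highest with budesonide, at 410 ± 79.7, 268 ± 60.3 and 97.4 ± 21.8 CPM. The mesenchymal markers, which include those of stellate cells, summed to 425 to 677 CPM in budesonide livers, 478 to 725 CPM in surfactant livers and 294 to 499 CPM in unventilated livers, and none of the 6 passed by edgeR between budesonide and surfactant.

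The genes most like each member over the 12 livers were found by Pearson's r of log2 CPM, which the group differences largely set. WIPF3 ran closest to RCL1 (r = 0.982), which averaged 1050 ± 185 CPM in budesonide livers, 262 ± 51.7 CPM in surfactant livers and 169 ± 22.9 CPM in unventilated livers, and to CHMP4B (r = 0.980). PLPP1 ran closest to KCTD12 (r = 0.977), which was also highest in the surfactant group, at 121 ± 29.6, 380 ± 99.7 and 105 ± 6.24 CPM in budesonide, surfactant and unventilated livers, and to UGT1A6 (r = 0.957). EHD3 ran closest to CPNE2 (r = 0.972) and PCED1B (r = 0.958), and NADK2 to PLAU (r = 0.957) and MAGI1 (r = 0.955). DOCK3 had the fewest genes with r over 0.9, 4 in all, led by NRP2 (r = 0.929) and SP110 (r = 0.908). OSR2 ran closest to USP53 (r = 0.972) and PNKD (r = 0.971), and GHRHR to GID4 (r = 0.960) and DDX46 (r = 0.949).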

How the data were processed

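Polyadenylated RNA of liver and periventricular white matter was sequenced. Whole-number counts per gene were deposited by the authors, 1 table per tissue, made with Bowtie2 and featureCounts, per the submitters' processing notes, which also name edgeR; versions, genome build and strand setting are not given in the sources used here. In each tissue's table, 23 of the symbols had turned into dates (0.0919 to 0.282% of counts) and stayed in the totals, and 508 LOC identifiers were named through the RefSeq gene reference (ARS-UI_Ramb_v3.0). Groups came from the labels, and each library is a separate lamb within its tissue.

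The counts were fitted with edgeR 4.0.16 in R 4.3.3 (filterByExpr, TMM, robust quasi-likelihood test, Benjamini-Hochberg over all genes tested, threshold 0.05), 3 groups of 1 tissue in 1 fit (16824 genes in liver, 18616 in white matter) or 6 groups of both tissues (20010 genes). Biological coefficients of variation were 0.304 in liver and 0.197 in white matter. The procedure was tested on simulated data. The members, family lists and markers were chosen with earlier results of these data known. The text names all members, list genes called in liver (at most 4 per list), 4 glucocorticoid reference genes and the 2 genes most like each member; PECAM1, KDR, CDH5, STAB2, LYVE1, VWF, PTPRC, SOX9, P2RY12 and the chromosome neighbours were named after their values were seen, and the paralogs for their family. Alternatives were median-ratio scaling, no filter, DESeq2 1.42.0, leaving out each library, 2 groups only, gestational age, the animal as block and, chosen after seeing the data, unscaled totals; the ventilation difference between tissues was also added then. Same-animal deviations of the tissues correlated at r of 0.079 to 0.198 over 11 pairs, which come from the animal numbers in the labels, against a median of -0.008 for different animals. OSR2 and GHRHR, which passed the filter only through budesonide livers, were tested in no comparison. Depth limits DOCK3, OSR2 and GHRHR most. Promoter and protein sequences were not used here.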

Additional observations from a re-analysis of the deposited data

Results flagged for a closer look

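Of 42 sets of 4 libraries (7 members by 6 groups), 5 held 1 library far from the other 3, with chance flagging about 1 in 20. WIPF3 was 99.5 CPM in the liver of budesonide lamb 050, against 77.9 to 81.1 CPM in the others of that group. NADK2 was 27.3 CPM in the white matter of surfactant lamb 051, against 33 to 33.9 CPM in the others, in the library with the high oligodendrocyte marker sum. DOCK3 was 281 CPM in the white matter of unventilated lamb 060, against 238 to 244 CPM. OSR2 was 0.0581 CPM in the white matter of budesonide lamb 031 and 0.121 CPM in that of surfactant lamb 007, 1 and 2 counts where the other libraries of the group had 0.

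The change with ventilation differed between liver and white matter by 1.89 on the log2 scale for PLPP1, by -0.67 for NADK2 and by 0.99 for DOCK3, out of 5 members examined. The surfactant libraries behind these differences also entered the comparison that chose the members. Among 18 family and reference genes examined, the change with budesonide differed between liver and white matter by -0.70 for EHBP1 (SE 0.18, edgeR adjusted p = 0.0284) and by 2.07 for LHX2 (SE 0.47, edgeR adjusted p = 0.0154). LHX2 averaged 80.7 ± 13.6 CPM in budesonide white matter and 99.6 ± 19.0 CPM in surfactant white matter.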

How the results depend on the processing

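Liver differences of budesonide over surfactant kept their sign for all 7 members in every fit, which the choice of members by this difference largely fixes. Leaving out 1 library gave 3.85 to 3.99 for WIPF3 and 4.48 to 5.62 for GHRHR. Signs turned for log2 changes near 0: EHD3 with ventilation in liver was 0.03 with median-ratio scaling, 0.02 by DESeq2, 0.08 with gestational age and -0.08 to 0.07 without 1 library. PLPP1 with ventilation in white matter was -0.03 to 0.04 without 1 library. EHD3 in unventilated liver over white matter was -0.60 unscaled (edgeR adjusted p = 0.00208) and -0.06 to 0.11 without 1 library.

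Numbers of genes called moved more; the causes were not tested except that fewer samples entered some fits. DESeq2 called 3170 genes between budesonide and surfactant in liver (1994 by edgeR) with 24 list genes (14), 562 in white matter (182), 819 for ventilation in white matter (382) and 1320 for the tissue difference in the budesonide change (683). Fits of 2 groups called 884 genes with 3 list genes in liver, 69 in white matter and 174 for white matter ventilation. With gestational age 1398 genes (6911) and 2 members (4) were called for ventilation in liver, 15 in white matter, and 2958 (7903) and 346 (1501) for budesonide over unventilated in liver and white matter. Leaving out 1 library gave 1007 to 2838 genes and 4 to 20 list genes for budesonide in liver, 66 to 207 in white matter, 173 to 501 for white matter ventilation, 998 to 1657 for white matter budesonide over unventilated, 419 to 1476 for the tissue difference in the budesonide change, and 2 to 4 members for liver ventilation, 2 to 4 for the tissue difference in ventilation and 4 in every fit between unventilated tissues.

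Counts moved by over 1.5 times without these lambs: budesonide 031 or 048 or surfactant 049 (1007 to 1127 genes) for budesonide in liver; any budesonide lamb (66 to 78) or surfactant 032 (115) or 049 (113) in white matter; unventilated 060 (197) or 061 (173) for white matter ventilation; budesonide 054 for white matter budesonide over unventilated; and, for the tissue difference in the budesonide change, livers of budesonide 031 (422) and surfactant 007 (1476) and 051 (1342) and white matter of budesonide 031 (453), 048 (419) and 054 (437) and surfactant 051 (439). In 2-group fits WASF2 and EHBP1 missed the threshold (edgeR adjusted p = 0.0511 and 0.0514), as did EHBP1 unscaled (0.0568).

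With the animal as replicate block 428 genes differed between tissues in the budesonide change, against 683; 6 of the 11 same-animal pairs correlated above 0.1, and the block moved no other count by over 1.5 times. Unscaled totals shifted the median gene by -0.31 for ventilation in liver and by -0.35 for its tissue difference, where DOCK3 was at 0.61 (edgeR adjusted p = 0.0504). The 4 lambs per group, the age gap of the unventilated lambs and the low counts of OSR2, GHRHR and liver DOCK3 limit these results. The promoter motif search was not run.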

Other observations

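Genes next to the members on the chromosome, in the gene reference, had their own values in liver. SKP2, a ubiquitin ligase subunit beside NADK2, was at 3.07 ± 0.562 CPM in budesonide livers and 13.4 ± 6.63 CPM in surfactant livers (SD, n = 4 each; log2 change -2.12, SE 0.36, edgeR adjusted p = 0.00459), a call that held without any 1 library. RANBP3L, on the other side of NADK2, was higher with budesonide, at 6.45 ± 3.41 CPM in budesonide livers and 2.62 ± 0.663 CPM in surfactant livers (log2 change 1.30, SE 0.37, edgeR adjusted p = 0.0381), and lost its call at edgeR adjusted p of 0.0527 to 0.0975 without any 1 of budesonide lambs 031, 048 and 054, surfactant lambs 007, 049 and 051, or unventilated lamb 060. AQP1, a water channel beside GHRHR, was at 5.26 ± 1.06 CPM in budesonide livers and 13.3 ± 7.65 CPM in surfactant livers (log2 change -1.33, SE 0.39, edgeR adjusted p = 0.0463), opposite in sign to GHRHR, and lost its call without any 1 library other than that of surfactant lamb 007, at edgeR adjusted p of up to 0.141. Of the 10 neighbours tested, the other 7 did not pass.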
